A study of Mus musculus with 9 samples.

Results

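Cathepsins are the proteases of the lysosome. The 10 genes described here, Ctsa, Ctsb, Ctsc, Ctsd, Ctse, Ctsh, Ctsk, Ctsl, Ctss and Ctsz, were taken by name, as every probe set on the array whose only gene symbol in the platform annotation was one of them. That gave 22 probe sets for 10 genes, of 45101 probe sets and 18194 genes with a symbol of their own. All 10 genes were tested, through 20 of the 22 probe sets. A second probe set of Ctse and a second one of Ctsl were above the median signal of their array on 0 and 1 of 9 arrays and were left out of the tests.

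Lungs came from 9 female C57BL/6 mice aged 14 weeks, 3 in each of 3 groups, and RNA of each mouse went onto 1 array. Every mouse, controls included, had received a replication-deficient adenovirus into the trachea 14 days earlier. AdV-NULL mice received a virus without a cytokine gene, AdV-IL4 mice a virus with mouse IL-4, and AdV-IL4d2 mice a virus with mouse IL-4d2, an alternatively spliced form of IL-4. The labels do not say which cells took up the virus or what drives the cytokine, and whole lung was homogenised, so fewer cells of a type and less RNA per cell cannot be told apart. The comparisons ask how the cathepsin genes differed between each cytokine form and the control virus, and between the forms.

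Cathepsins are made as inactive precursors, sorted to lysosomes by mannose 6-phosphate receptors, and activated there at acid pH. Most are cysteine proteases of the papain type (Ctsb, Ctsc, Ctsh, Ctsk, Ctsl, Ctss and Ctsz), Ctsd and Ctse are aspartic proteases, and Ctsa is a serine carboxypeptidase. In the lung they are abundant in macrophages, where they digest what the cell takes up, cut the invariant chain of MHC class II, and, when released, can cleave elastin and collagen. Cystatins and stefins hold the cysteine cathepsins in check.

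Promoter sequences, from RefSeq on build GRCm38.p6, matched 7 of the 10 genes with 8 promoters, and Ctsb, Ctse and Ctsh had no match. The 250 bases before the start of each were searched on both strands, without allowing for other motifs, for CACGTG, the core that TFEB and its relatives bind at lysosomal genes, and for TTC and GAA set 4 bases apart, the pattern bound by STAT6, the transcription factor of the IL-4 receptor. CACGTG was present in 3 of the 8 promoters, those of Ctsd, Ctsl and 1 of 2 of Ctsa, against 6.02% of all 32851 promoters of that length. The STAT6 pattern was present in 0 of the 8, against 5.85% of all. Below are the promoters of Ctss and Ctsk, which lie on the same chromosome with 1 gene model, Gm40096, between them, and of Ctsd, the promoter with 2 CACGTG matches. They are written 5′ to 3′ with CACGTG matches in capitals.
Ctss promoter, chr3:95526536-95526785, + strand: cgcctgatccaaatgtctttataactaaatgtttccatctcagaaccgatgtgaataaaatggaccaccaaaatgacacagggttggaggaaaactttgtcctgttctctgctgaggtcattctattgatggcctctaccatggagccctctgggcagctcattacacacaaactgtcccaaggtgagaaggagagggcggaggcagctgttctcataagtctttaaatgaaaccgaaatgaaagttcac
Ctsk promoter, chr3:95498960-95499209, + strand: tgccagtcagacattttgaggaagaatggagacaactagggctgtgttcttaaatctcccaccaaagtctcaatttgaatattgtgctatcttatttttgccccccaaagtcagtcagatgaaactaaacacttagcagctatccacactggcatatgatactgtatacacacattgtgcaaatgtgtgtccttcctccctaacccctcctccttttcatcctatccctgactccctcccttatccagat
Ctsd promoter, chr7:142387828-142388077, - strand: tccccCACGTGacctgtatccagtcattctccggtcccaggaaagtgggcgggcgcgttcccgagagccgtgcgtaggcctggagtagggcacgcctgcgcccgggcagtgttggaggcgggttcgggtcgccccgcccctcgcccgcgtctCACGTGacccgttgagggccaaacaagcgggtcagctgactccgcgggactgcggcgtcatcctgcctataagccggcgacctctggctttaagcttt
In Ctsd the matches began 245 and 98 bases before the start, and the windows of Ctss and Ctsk held neither pattern. A match is a description of letters and was not tested as a binding site.

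Median signals lay between 156 and 171 on arrays that had each been scaled to 1 level, and the lung markers Sftpc, Scgb1a1 and Ager were at 25944 or more on all 9. Il4 was between 15.8 and 71.6 with control virus, 301 and 379 with IL-4, and 499 and 1172 with IL-4d2. Gapdh's 3′ probe set over its 5′ one, a ratio that is higher in less intact RNA, ran from 0.955 to 1.45 on control arrays, 1.55 to 1.80 on IL-4 arrays and 1.35 to 1.57 on IL-4d2 arrays, so every IL-4 array was above every control array. The same ratio for Actb ran from 2.28 to 2.88 on control arrays, 2.79 to 3.75 on IL-4 arrays and 2.34 to 2.79 on IL-4d2 arrays. There the ranges of IL-4 and control arrays overlapped. The part of these ratios in the results below was not tested. Muscle genes differed between groups, 6 of 8 heart muscle and 4 of 5 skeletal muscle markers being called lower with IL-4 than control, against 6.63% of all tested genes. Heart muscle sums were 17974 to 37518 on control, 1861 to 8710 on IL-4 and 7358 to 24847 on IL-4d2 arrays. Those counts were 1 and 0 once control mouse 1 and IL-4 mouse 2 were dropped. Muscle also differed within groups, the summed signal of 5 skeletal muscle genes being 55906 on control mouse 1, 1858 on control mouse 3 and 445 on IL-4 mouse 2. Counts for the cathepsins and related lists are also given without control mouse 1 and IL-4 mouse 2, the arrays on which muscle signals stood apart in earlier results of these data.

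Signals are intensities on a linear scale, and differences are on the log2(signal + 16) scale with the standard error of the limma fit. A gene with several probe sets is represented by its brightest tested one. With IL-4, 8 of the 10 cathepsins rose against control virus and 0 fell at a limma adjusted p under 0.05, all but Ctse and Ctsl. The background was 6.34% of 11984 tested genes called higher and 6.63% called lower. The median log2 difference of the 10 was 0.77, against −0.02 over all tested genes. In 7 of the 10 every IL-4 array was above every control array, against a background of 14.9% of genes. Ctss changed most, at 3.36-fold, and the others that rose did so between 1.26-fold (Ctsa) and 1.90-fold (Ctsc). These directions are relative to the typical gene, since each array had been scaled to 1 level. With arrays scaled to spiked hybridisation or poly-A controls instead, the median over all probe sets was −0.43 or −0.77, and under 1 or both of these scalings Ctsa, Ctsb, Ctse, Ctsh and Ctsl turned below 0, while all 10 genes stayed above the median. Calls then came to 1 of 10, higher, with hybridisation controls, and to 1 higher and 1 lower with poly-A controls. Of all 23824 tested probe sets, 295 were called higher and 7156 lower with hybridisation controls. With poly-A controls these counts were 152 and 17971.

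With IL-4d2, limma called 0 of the 10 cathepsins against control virus (background 0.859% of genes called higher and 0.401% lower). At an unadjusted p under 0.05 there were 4 of 10, Ctsc, Ctsh, Ctss and Ctsz, against 15.5% of all genes. The median log2 difference was 0.23, with 8 of 10 values above 0 (49.8% of all genes), and all genes together had a median of 0.00. Groups did not overlap for Ctsh and Ctsz, against a background of 11.4% of genes with IL-4d2 higher. The 3 control arrays are shared by both comparisons against control virus, so their values are given side by side. IL-4 and IL-4d2 arrays were then compared directly. Between them, limma called 3 of 10 genes higher with IL-4, Ctss, Ctsk and Ctsb, and 0 lower (background 1.18% higher and 1.05% lower), with a median of 0.46. With poly-A control scaling 8 of the 10 were instead called lower with IL-4 and 0 higher. Of all 23824 tested probe sets, that scaling called 22470 lower and 33 higher. A moderated F test over the 3 groups called 7 of 10, against 9.28% of all genes.

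**Figure D1:**
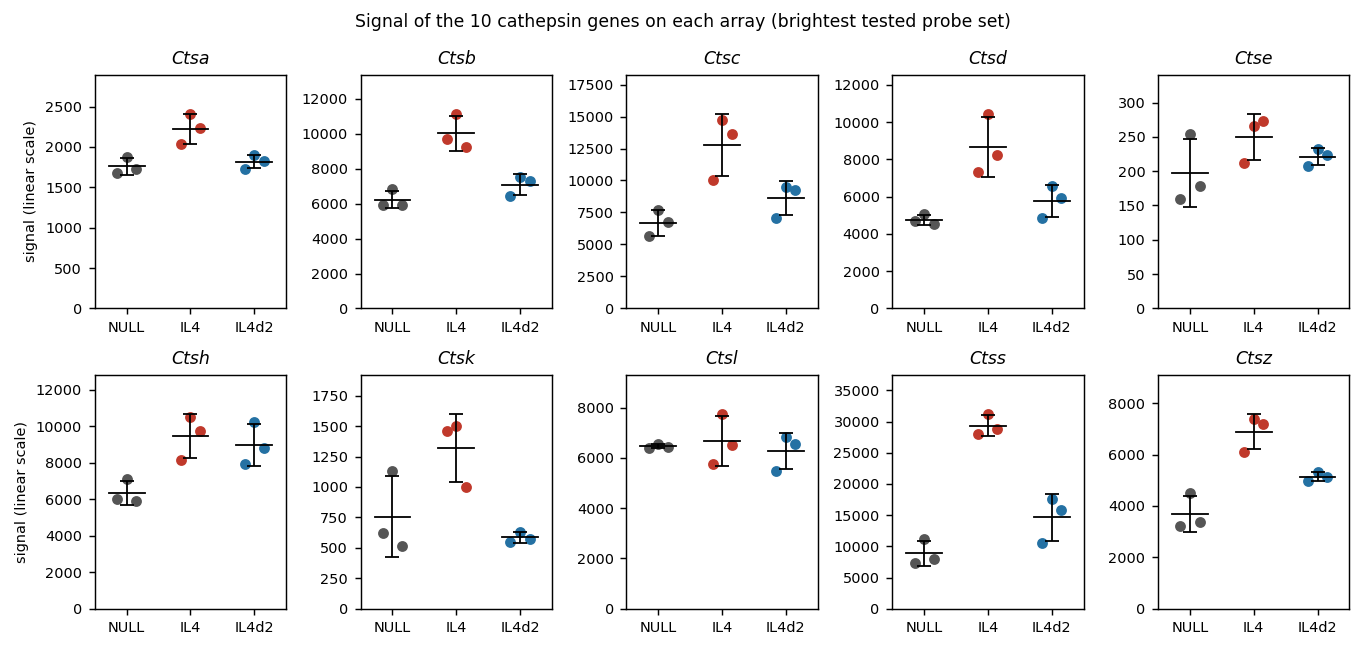
Signal on a linear scale (vertical axes, from 0) of the brightest tested probe set of each cathepsin gene on the 9 arrays, grouped by virus. Points are mice, lines are group means and bars are SDs of 3 mice. Ctss shows the widest gap, with IL-4 arrays between 27964 and 31246 and control arrays between 7410 and 11225, and Ctsl shows none.

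**Figure D2:**
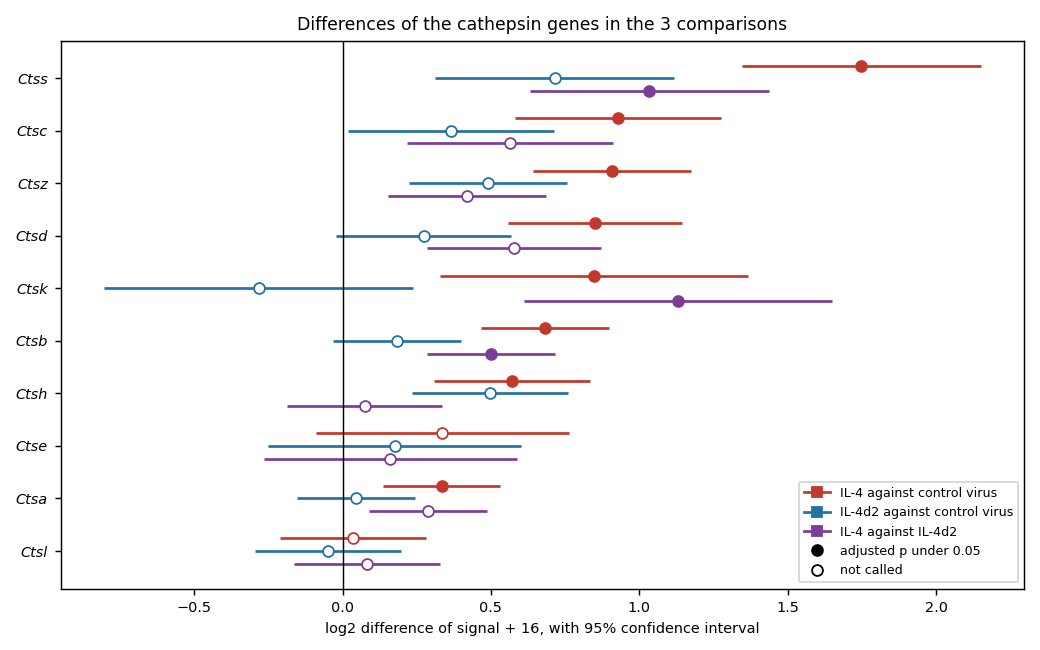
Log2 difference (horizontal axis, signal + 16) of each cathepsin gene in the 3 comparisons, with 95% confidence intervals from the limma fit. Filled points passed an adjusted p of 0.05: 8 genes for IL-4 against control virus, 0 for IL-4d2 against control virus and 3 for IL-4 against IL-4d2. Directions are relative to the typical gene of the scaled arrays, and with poly-A control scaling 9 of the 10 genes in the last comparison turn below 0. The median of all probe sets is then −1.04, and all 10 genes stay above it.

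Cathepsins of antigen presentation come first. Ctss, the cysteine protease that trims the invariant chain in antigen-presenting cells and also cleaves elastin, had signals of 7410, 11225 and 7945 in control mice 1 to 3. With IL-4 they were 27964, 31246 and 28772, and with IL-4d2 they were 10461, 17589 and 15900. All IL-4 arrays were above all arrays of the other groups, while the lowest IL-4d2 array lay below the highest control array. The rise with IL-4 was 3.36-fold (log2 difference 1.75 ± 0.18, limma adjusted p = 0.000179), and its call held in each of the 9 fits with 1 array left out (1.63 to 1.93). With IL-4d2 the fold was 1.64 (95% interval 1.24 to 2.17) and was not called (adjusted p = 0.0872). That value was 0.90 and called without control mouse 2 (adjusted p = 0.0279), and 0.94 and called without IL-4d2 mouse 1 (adjusted p = 0.0206). IL-4 was 2.05-fold above IL-4d2 (1.03 ± 0.18, adjusted p = 0.0166), a call lost without IL-4 mouse 2 (0.99, adjusted p = 0.0540) or IL-4d2 mouse 3 (1.11, adjusted p = 0.0518), and the value was −0.04 with poly-A control scaling.

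Ctsl, a broad endopeptidase that takes the place of Ctss on the invariant chain in thymic epithelium, had the smallest log2 difference from control virus with IL-4, at 0.04, and was at −0.05 with IL-4d2. Its signals were 6405, 6553 and 6416 with control virus, 5758, 7749 and 6501 with IL-4, and 5474, 6810 and 6540 with IL-4d2. The 3 groups overlapped, and the control arrays lay inside the range of the others. The fold was 1.02 with IL-4 (95% interval 0.864 to 1.22, limma adjusted p = 0.879) and 0.967 with IL-4d2 (0.816 to 1.15, adjusted p = 0.893).

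Among the lysosomal exopeptidases, Ctsc, the dipeptidyl peptidase that activates granule serine proteases, had signals of 5626, 7698 and 6737 with control virus. With IL-4 they were 10075, 14739 and 13595, and with IL-4d2 they were 7085, 9523 and 9236. Every IL-4 array was above the other 6. Ctsc rose 1.90-fold with IL-4 (0.93 ± 0.16, limma adjusted p = 0.00386) and was 1.29-fold above control with IL-4d2 (95% interval 1.01 to 1.64, adjusted p = 0.320). The 1.48-fold difference between the forms was not called (adjusted p = 0.104). It was called without IL-4 mouse 1 (log2 difference 0.73, adjusted p = 0.0358), and called in the other direction with poly-A control scaling (−0.51, adjusted p = 0.0252).

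Ctsz, a carboxypeptidase, is read by 3 probe sets. The brightest gave 3217, 4505 and 3359 with control virus, 6096, 7374 and 7201 with IL-4, and 4980, 5315 and 5111 with IL-4d2. Here the 3 groups formed 3 separate levels with no overlap. Ctsz rose 1.88-fold with IL-4 (0.91 ± 0.12, limma adjusted p = 0.000954). With IL-4d2 it was 1.40-fold above control (95% interval 1.17 to 1.69, adjusted p = 0.0783), and was called without control mouse 2 (0.64, adjusted p = 0.00682). The difference between the forms on the brightest probe set was not called (1.34-fold, adjusted p = 0.113; adjusted p = 0.0384 without control mouse 2). On the other probe sets it was called, at 1.73-fold (adjusted p = 0.00430) and 1.44-fold (adjusted p = 0.0123), with names in _s_at and _x_at that mark probes able to match further transcripts.

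Ctsh, an aminopeptidase that in the lung also processes surfactant protein B in alveolar type 2 cells, had signals of 6013, 7102 and 5927 with control virus. They were 8148, 10526 and 9717 with IL-4 and 7923, 10202 and 8824 with IL-4d2. Both cytokine groups were above all control arrays and overlapped each other. The fold was 1.49 with IL-4 (0.57 ± 0.12, limma adjusted p = 0.0115) and 1.41 with IL-4d2 (0.50 ± 0.12, 95% interval 1.18 to 1.69, adjusted p = 0.0700). The second value was called without control mouse 2 (0.58, adjusted p = 0.0473) or IL-4 mouse 1 (0.50, adjusted p = 0.0408). Between the forms the fold was 1.05 (95% interval 0.878 to 1.26, adjusted p = 0.804), so a difference of up to 1.26-fold is within the error. The second probe set gave 1.53-fold with IL-4 and 1.39-fold with IL-4d2.

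Ctsa protects the lysosomal galactosidase and neuraminidase as well as acting as a carboxypeptidase. Its signals were 1674, 1875 and 1732 with control virus, 2034, 2411 and 2233 with IL-4, and 1732, 1895 and 1823 with IL-4d2. The IL-4 arrays were above all others by a narrow margin. The rise of 1.26-fold with IL-4 (0.33 ± 0.09, limma adjusted p = 0.0362) was the smallest called. The call did not hold when control mouse 1 (0.30) or 3 (0.32) was dropped, nor on dropping mouse 2 (0.28) or 3 (0.33) of the IL-4 group or mouse 2 or 3 of the IL-4d2 group (0.33 both). A dimmer Ctsa probe set, between 154 and 270 on the 9 arrays, gave 1.05-fold (adjusted p = 0.872). With IL-4d2 the brighter one was at 1.03-fold (95% interval 0.900 to 1.18).

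Of the endopeptidases, Ctsb is a cysteine protease of most lysosomes, with 5 probe sets. The brightest gave 5940, 6819 and 5943 with control virus, 9686, 11156 and 9255 with IL-4, and 6419, 7543 and 7297 with IL-4d2. IL-4 arrays were above all others, and IL-4d2 arrays overlapped control arrays. Ctsb rose 1.61-fold with IL-4 (0.68 ± 0.10, limma adjusted p = 0.00151) and was 1.41-fold higher with IL-4 than with IL-4d2 (0.50 ± 0.10, adjusted p = 0.0284). The second call was lost on dropping mouse 2 of the IL-4 group (0.42) or mouse 1, 2 or 3 of the IL-4d2 group (0.43, 0.55 and 0.52), and the value was −0.04 or −0.58 with hybridisation or poly-A control scaling. The median of all probe sets was then −0.52 or −1.04. With IL-4d2 the fold against control was 1.14 (95% interval 0.978 to 1.32).

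The 5 Ctsb probe sets did not give 1 value. With IL-4, 3 of them rose, by 1.61-fold, 1.40-fold and 2.38-fold. The other 2 were at 1.16-fold (95% interval 0.920 to 1.48) and 1.15-fold (0.941 to 1.40). The largest ratio came from a dim probe set, with signals of 139 to 283 on control arrays and 434 to 544 on IL-4 arrays. Between the forms, only the brightest and this dim probe set (2.40-fold, limma adjusted p = 0.0241) were called. The others were at 1.32-fold, 1.10-fold and 1.24-fold (adjusted p = 0.0705, 0.697 and 0.261). Why probe sets of a gene differed was not tested.

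Ctsd, the main aspartic protease of lysosomes, had signals of 4671, 5063 and 4523 with control virus, 7298, 10462 and 8262 with IL-4, and 4867, 6554 and 5928 with IL-4d2. All IL-4 arrays were above the other 6, and 1 IL-4d2 array lay among the controls. Ctsd rose 1.80-fold with IL-4 (0.85 ± 0.14, limma adjusted p = 0.00250). With IL-4d2 it was at 1.21-fold (95% interval 0.986 to 1.48, adjusted p = 0.387). The 1.49-fold difference between the forms missed the threshold (adjusted p = 0.0545), and passed it without IL-4 mouse 1 (0.69, adjusted p = 0.0308) or with a filter asking for signals above the median on all 9 arrays (0.58, adjusted p = 0.0414). With poly-A control scaling it was called in the other direction (−0.50, adjusted p = 0.0333), above the median of all probe sets of −1.04.

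Ctse, the other aspartic protease, known from gastric and immune cells, was dim and above the array median on 8 of 9 arrays. Signals were 160, 254 and 178 with control virus, 211, 266 and 273 with IL-4, and 207, 232 and 224 with IL-4d2. The 3 groups overlapped. Folds were 1.26 with IL-4 (95% interval 0.940 to 1.70, limma adjusted p = 0.305) and 1.13 with IL-4d2 (0.841 to 1.52). At this signal a change of the size seen for Ctsb would lie inside the interval.

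Ctsk, the collagen- and elastin-degrading protease of osteoclasts that macrophages and fibroblasts can also make, followed another order of groups. Signals were 621, 1133 and 518 with control virus, 1462, 1503 and 999 with IL-4, and 551, 632 and 575 with IL-4d2. Control mouse 2 was apart from the other control mice and overlapped the IL-4 arrays, while IL-4d2 arrays were all below IL-4 arrays and within the control range. Ctsk was 1.80-fold higher with IL-4 than control (0.85 ± 0.24, limma adjusted p = 0.0414), and 2.19-fold higher with IL-4 than IL-4d2 (1.13 ± 0.24, adjusted p = 0.0366). IL-4d2 against control gave −0.28 ± 0.24, a fold of 0.822 (95% interval 0.573 to 1.18), and the value was 0.04 without control mouse 2.

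Neither Ctsk call was stable. The first was lost in 7 of 9 fits with 1 array left out: on dropping control mouse 1 (0.75) or 3 (0.62), mouse 1 (0.76) or 2 (0.74) of the IL-4 group, or any mouse of the IL-4d2 group (0.85). Without control mouse 2 it was 1.17 and called (adjusted p = 0.00214). The call against IL-4d2 was lost in 5 of 9 fits, on dropping mouse 1 (1.05) or 2 (1.03) of the IL-4 group, or mouse 1 (1.09), 2 (1.19) or 3 (1.12) of the IL-4d2 group. Ctsk and Ctsl were the 2 members whose mean was lowest with IL-4d2, and the other 8 were lowest with control virus, while the mean of all 10 was highest with IL-4.

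**Figure D3:**
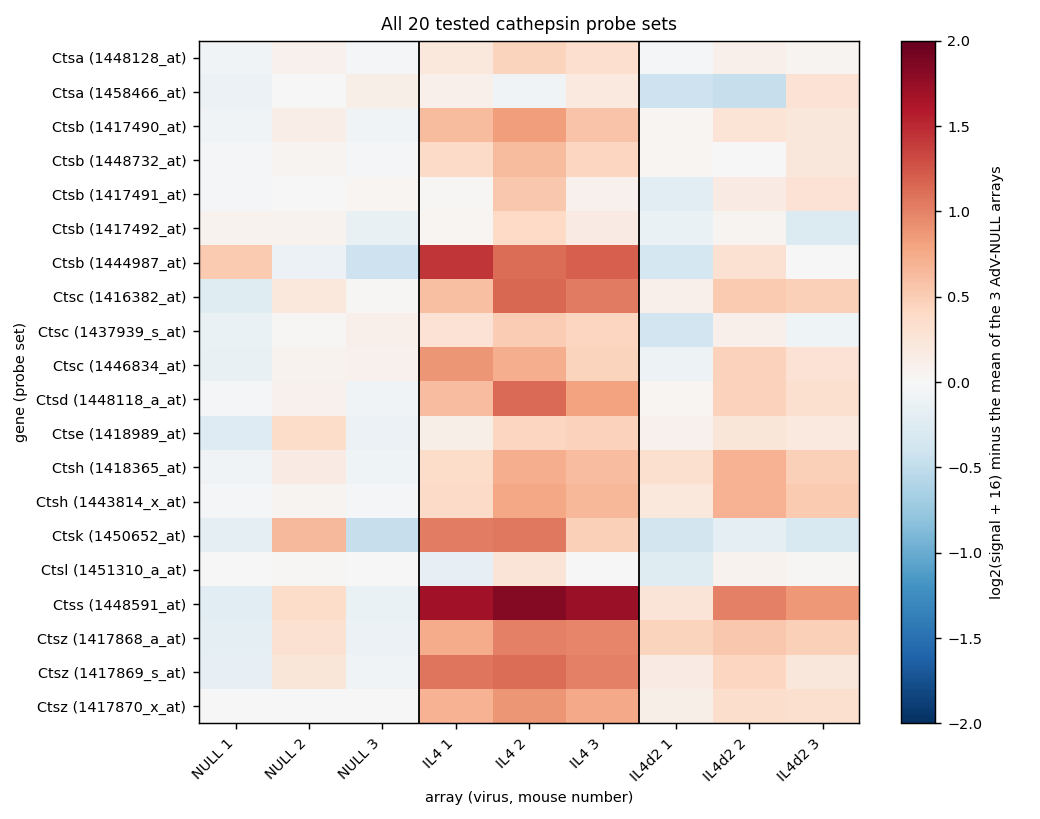
Each of the 20 tested cathepsin probe sets (rows) on the 9 arrays (columns, by virus and mouse number), coloured by log2(signal + 16) minus the mean of the 3 control arrays. With IL-4, 14 of the 20 probe sets were called higher and 0 lower, against a background of 5.60% and 5.08% of probe sets, and Ctsk on control mouse 2 stands above the other control arrays.

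With both control mouse 1 and IL-4 mouse 2 left out, limma called 5 of the 10 genes for IL-4 against control, all higher: Ctsb, Ctsc, Ctsd, Ctss and Ctsz. Of all 23824 tested probe sets, 575 were then called higher and 493 lower. For IL-4 against IL-4d2 limma called 1 of the 10 genes, and of all probe sets 128 higher and 109 lower. With 1 array left out, counts ran from 6 to 8 for IL-4 against control, from 0 to 3 for IL-4d2 against control, and from 0 to 4 between the forms. The last count was 0 on dropping mouse 2 of the IL-4 or mouse 3 of the IL-4d2 group, and 1 on dropping mouse 1 or 2 of the latter. The count of 3 for IL-4d2 came without control mouse 2, and those of 1 without IL-4 mouse 1 or IL-4d2 mouse 1.

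Related genes were read from lists written for this report. The background for their counts was 6.34% of all tested genes called higher and 6.63% lower with IL-4. With IL-4d2 it was 0.859% and 0.401%, and between the forms 1.18% and 1.05%. Of 7 tested further cathepsins and relatives, only Lgmn, the asparaginyl endopeptidase that helps mature several cathepsins, was called. It rose 1.52-fold with IL-4, from 1588 ± 97.3 to 2423 ± 168 (SD, n = 3 each; limma adjusted p = 0.00136), although with poly-A control scaling its value was −0.19. Lgmn was also 1.37-fold higher with IL-4 than IL-4d2 (adjusted p = 0.0241), a call lost in 5 of 9 fits with 1 array left out: on dropping mouse 2 or 3 of the IL-4 group or any of the IL-4d2 group (values from 0.41 to 0.47). Ctsf, Ctso and Ctsw, the further genes of the cathepsin name tested, were at log2 differences of 0.16 ± 0.59, −0.27 ± 0.09 and 0.38 ± 0.24 with IL-4 (adjusted p = 0.898, 0.0662 and 0.345). Ctsf was dim, at 156 ± 96.6 with control virus and 166 ± 72.4 with IL-4 (SD, n = 3 each). Napsa, at 5689 with control virus, was at 0.38 ± 0.18 with IL-4 (adjusted p = 0.197) and 0.43 ± 0.18 with IL-4d2 (adjusted p = 0.287). The list median was 0.37 with IL-4 and 0.43 with IL-4d2, and 10 of the 17 members on the array did not pass the filter on dim signals.

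Of 7 tested inhibitors, the serpin Serpinb6b and the stefin Cstb, a cytosolic inhibitor of cysteine cathepsins, rose with IL-4. Serpinb6b rose 1.58-fold with IL-4 (limma adjusted p = 0.00316), and with IL-4d2 also 1.58-fold (adjusted p = 0.0110), the only inhibitor called there. The call with IL-4d2 was lost without IL-4d2 mouse 2 (0.60, adjusted p = 0.0660). Cstb rose 1.34-fold (0.42 ± 0.11, adjusted p = 0.0301), a call lost on dropping control mouse 1 or 3, or mouse 1 or 2 of the IL-4 group (values from 0.35 to 0.40). With poly-A control scaling the IL-4 values of Serpinb6b and Cstb were −0.13 and −0.38, the second also turning to −0.03 with hybridisation control scaling. Cst3, the main secreted cystatin, was not called with IL-4d2 (0.22 ± 0.12, adjusted p = 0.439). The list median was 0.16 with IL-4 and 0.23 with IL-4d2. In each comparison against control, 1 inhibitor was called with control mouse 1 and IL-4 mouse 2 dropped.

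Of the lysosomal sorting and maturation genes, 4 of 26 tested rose with IL-4 and 0 fell, with a median of 0.19. The background was 6.34% of all tested genes called higher and 6.63% lower. Psap, the precursor of the saposins that activate lipid hydrolases, rose 2.23-fold, from 10569 ± 1711 to 23599 ± 4134 (SD, n = 3 each; limma adjusted p = 0.000343), and was 1.96-fold above IL-4d2 (adjusted p = 0.00430; −0.11 with poly-A control scaling). Glb1, the galactosidase that Ctsa protects, rose 1.48-fold with IL-4 (adjusted p = 0.0208), a call lost on dropping control mouse 2 or 3, or mouse 1 of the IL-4 group (values from 0.44 to 0.58), and was at −0.22 with poly-A control scaling. Gnptab and Grn were the others called, and 1 of the 26 was called without control mouse 1 and IL-4 mouse 2. Neu1, the neuraminidase, was not called with IL-4 (0.32 ± 0.13, limma adjusted p = 0.152). With IL-4d2 limma called 0 of 26.

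MHC class II processing genes, among them Cd74, the invariant chain that Ctss trims, rose in 9 of 10 cases with IL-4 (median 0.83) and in 3 of 10 with IL-4d2 (median 0.38). Of all tested genes, 6.34% were called higher with IL-4 and 0.859% with IL-4d2. H2-Ab1, a class II chain, rose 2.14-fold in IL-4 mice (limma adjusted p = 0.00173) and the thiol reductase Ifi30 rose 2.02-fold (adjusted p = 0.000203). With IL-4d2, Ifi30 rose 1.48-fold (adjusted p = 0.0280), H2-Eb1 1.67-fold (adjusted p = 0.0142) and H2-Ab1 1.67-fold (adjusted p = 0.0499). The Ifi30 and H2-Eb1 calls with IL-4d2 were lost without control mouse 3 or any IL-4d2 mouse, and that of Ifi30 also without control mouse 1. The H2-Ab1 call with IL-4d2 was lost in 8 of 9 fits with 1 array left out, all but the one without control mouse 2 (values from 0.61 to 0.77). Without control mouse 1 and IL-4 mouse 2 the counts were 6 and 1, and with 1 array left out they ran from 5 to 9 and from 0 to 4. With hybridisation or poly-A controls, 4 and 0 were called with IL-4. Limma called 0 of the 10 between the forms. A list of 13 granule proteases was read because Ctsc activates granule serine proteases, though not every gene on it encodes one. Only Gzma and Gzmb passed the filter, and neither was called (−0.22 and −0.18 with IL-4, adjusted p = 0.339 and 0.547).

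Matrix genes whose products cathepsins can cut rose in 8 of 13 cases with IL-4 and fell in 2, Dcn and Lama4 (median 0.41). The background with IL-4 was 6.34% of all tested genes called higher and 6.63% lower. Without control mouse 1 and IL-4 mouse 2, 5 were called higher and 2 lower, and without control mouse 1 alone 5 and 1. With hybridisation controls 2 were higher and 2 lower, and with poly-A controls 1 and 4. Eln, which encodes elastin, a substrate of Ctss and Ctsk, rose 4.95-fold with IL-4 (limma adjusted p = 3.28e-06), and with IL-4d2 2.33-fold (adjusted p = 0.000650), the only one of the 13 called there. Of 9 osteoclast-type genes, 4 rose with IL-4, Acp5, Atp6v0d2, Itgb3 and Trem2 (median 0.50), and 0 with IL-4d2 (median −0.04). Acp5, the tartrate-resistant acid phosphatase found beside Ctsk in osteoclasts, went from 485 ± 136 with control virus to 1430 ± 126 with IL-4 (SD, n = 3 each) at 2.96-fold (adjusted p = 0.000325), and was 2.18-fold higher with IL-4 than IL-4d2 (adjusted p = 0.00944). Atp6v0d2, a proton pump subunit that is also on the list of alveolar macrophage markers read below, was 2.27-fold higher with IL-4 than IL-4d2 (adjusted p = 0.00967). Both calls between the forms were lost without IL-4d2 mouse 3 (1.12 for each, adjusted p = 0.0507 and 0.0589), and Acp5 and Atp6v0d2 were the 2 of the 9 called there. Without control mouse 1 and IL-4 mouse 2, 1 of the 9 was called against control.

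**Figure D4:**
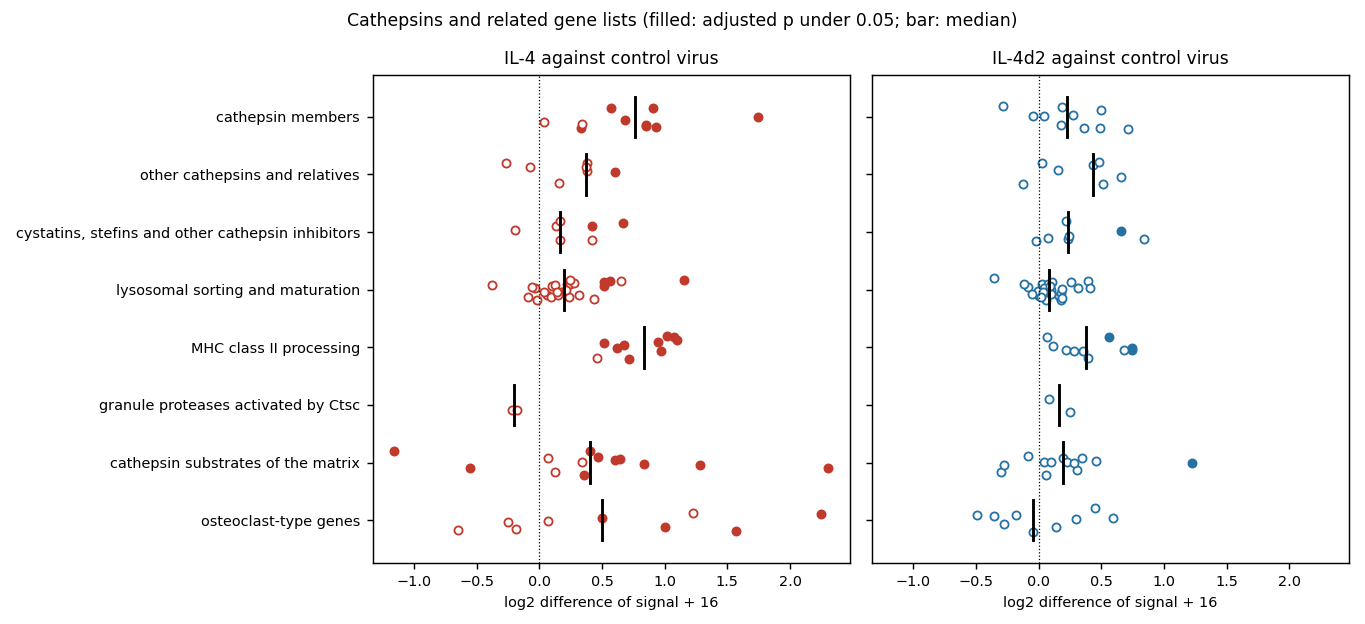
Log2 differences (horizontal axes, signal + 16) of all tested genes of the cathepsin list and 7 related lists, for IL-4 (left) and IL-4d2 (right) against the same control arrays. Filled points passed an adjusted p of 0.05 and bars are list medians: 0.77 for the cathepsins with IL-4 and 0.23 with IL-4d2, relative to the typical gene of the scaled arrays.

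Markers of other cell types were read on the same arrays. The background for these counts was 6.34% of all tested genes called higher and 6.63% lower with IL-4, and 0.859% and 0.401% with IL-4d2. Of 13 tested markers of interstitial macrophages and monocytes, 7 rose with IL-4 and 3 with IL-4d2, and 0 fell. Their summed signal was 16833 to 23871 on control arrays, 29333 to 34690 on IL-4 arrays and 25133 to 27786 on IL-4d2 arrays. With control mouse 1 and IL-4 mouse 2 dropped, 4 and 2 of the 13 were called higher. With hybridisation controls 5 of the 13 were called higher and 0 lower with IL-4, and with poly-A controls 1 and 3. The medians of all probe sets were then −0.43 and −0.77. C1qb, a complement chain of tissue macrophages, rose 2.90-fold with IL-4 (limma adjusted p = 0.00109), and with IL-4d2 2.12-fold (adjusted p = 0.0283). The second call was lost on dropping mouse 3 of the control or IL-4 group or any of the IL-4d2 group (values from 1.01 to 1.17). Cd68, a lysosomal glycoprotein of macrophages, rose 2.30-fold with IL-4 (adjusted p = 0.00761). That call was lost without control mouse 1 and IL-4 mouse 2 (0.96, adjusted p = 0.0755) or with poly-A control scaling (0.42, adjusted p = 0.109). Of 11 alveolar macrophage markers, 4 rose and 2 fell with IL-4: Itgax rose 3.01-fold (adjusted p = 0.000103) and was 2.79-fold above IL-4d2 (adjusted p = 0.000920), while Marco was 5.85-fold lower (adjusted p = 0.000226). Their summed signal was 24749 to 38932 on control, 52015 to 57052 on IL-4 and 22458 to 30580 on IL-4d2 arrays. Chil3, a chitinase-like protein, carried that sum, at 14998 ± 5820 with control virus, 38350 ± 2817 with IL-4 and 15285 ± 3997 with IL-4d2 (SD, n = 3 each). B cell markers summed to 2954 to 4073, 5150 to 5803 and 4388 to 4951 in the same order, with 5 of 8 called higher with IL-4, or 2 with control mouse 1 and IL-4 mouse 2 dropped. With hybridisation or poly-A controls 0 of the 8 were called with IL-4. Of 3 tested neutrophil markers 2 fell with IL-4, the sums being 3309 to 6123, 532 to 1546 and 3142 to 7832, and 2 did so without control mouse 1 and IL-4 mouse 2. Over the alveolar macrophage markers the sum and the median differ in sign, the median log2 difference with IL-4 being −0.06. Of those 11 markers, 3 were called higher and 5 lower with hybridisation controls, and 2 and 7 with poly-A controls. The part of these markers in the cathepsin values was not tested.

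**Figure D5:**
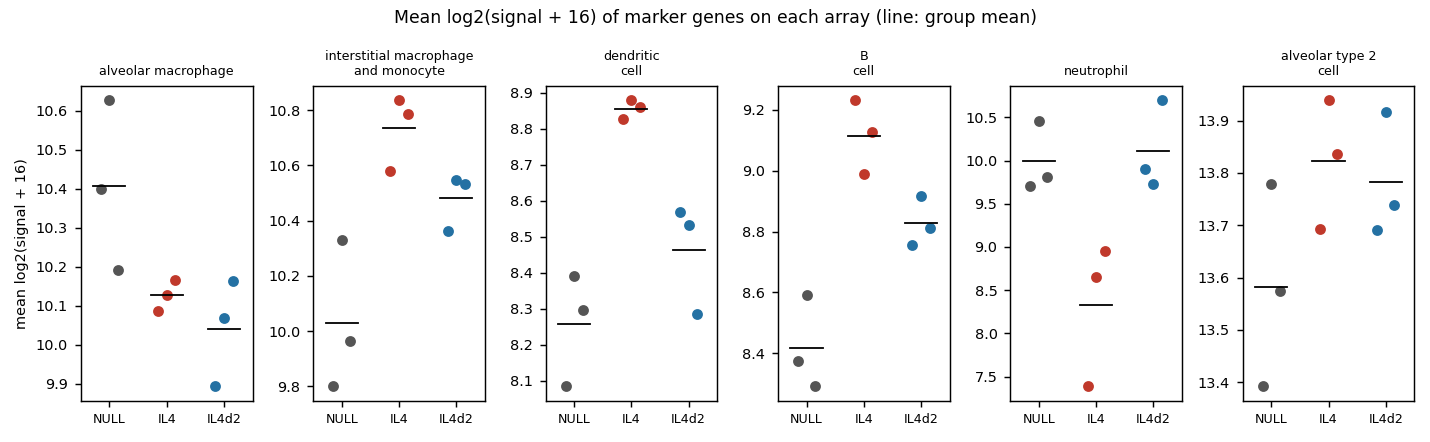
Mean log2(signal + 16) of the tested markers of 6 cell types on each array (vertical axes differ between panels and do not start at 0), with group means as lines. Interstitial macrophage and monocyte markers were above every control array on all 3 IL-4 arrays and on all 3 IL-4d2 arrays, as their lowest value there, 10.36, exceeds the control maximum of 10.33.

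By likeness over the 9 arrays, each called cathepsin was set against 11545 other tested genes, as a description only, since the arrays form 3 groups that all such pairs share. Ctss was nearest to Edem1, a factor of protein quality control in the endoplasmic reticulum, and to the chemokine Ccl6 (Pearson r = 0.99 for both). Ctsb was nearest to Edem1 and Clec4a2 (r = 0.99 and 0.98), Ctsc to the Fc receptor Fcgr3 and Prkcd (0.98 and 0.97), Ctsd to Pld3 and Cyb5r4 (0.97 both), and Ctsz to Tnfaip3 and Ly86 (0.99 both). Ctsa was nearest to Prkcd and Slc15a3 (0.97 both). Ctsh, whose signals were alike with both cytokine forms, was nearest to Ighm, the IgM heavy chain, and Arg2 (0.97 both). Ctsk was nearest to the mannose receptor Mrc1 and to Cd300lf (0.97 and 0.96).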

How the data were processed

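Whole-lung RNA of 9 mice (3 per virus) was labelled from 200 ng with an oligo-dT primer and measured on 9 Affymetrix arrays, per the labels' protocols. The authors deposited linear intensities, 1 signal per probe set. Affymetrix Expression Console (version 2.0), GCOS and MAS5 stand in the submitters' processing notes, with no role given. From the values, each array had been scaled to a like trimmed mean, so a change shared by most genes cannot be seen. Arrays have no depth, and 3 mice per group limit the precision. Gene names came from the platform annotation.

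Signals were turned into log2(signal + 16). Probe sets above their array's median on at least 3 of 9 arrays were tested, without 64 control probe sets, which left 23824. All 9 arrays entered 1 limma fit (lmFit, eBayes with trend; limma 3.58.1, R 4.3.3; 6 residual degrees of freedom), with 3 contrasts, two-sided tests and Benjamini-Hochberg adjustment over all 23824, threshold 0.05. Errors after differences are standard errors, and intervals are 95%. The fit was tested on simulated data.

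Named were all 10 cathepsins, up to 4 called genes of each related list with the largest differences (or the 2 brightest), and the 2 genes most like each called cathepsin. Ctsf, Ctso, Ctsw, Neu1 and Lama4, and Serpinb6b and Eln with IL-4d2, were chosen after their values were seen. Identity between the proteins was not analysed here. Members and lists were chosen with earlier results of these data known. Alternatives covered the pseudocount, filter, scaling, mouse number as a block, 6-array fits, eBayes without trend, the mean of a gene's probe sets and left-out arrays.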

Additional observations from a re-analysis of the deposited data

How the results depend on the processing

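The differences of the 10 cathepsins in 3 comparisons were recomputed under 21 settings. Some settings can change only the error or adjusted p and not the difference, so no sign could turn there. These were the filters, the mouse block, the 6-array fits, eBayes without trend, and dropping a mouse of the group not compared. Of 627 differences, 518 kept direction and side of the threshold and 36 changed sign. Among the rest, 52 lost a call and 21 gained one. A call lost or gained together with a change of sign is counted only among the 36. With 1 array left out, probe sets called ran from 1313 to 2210 for IL-4 against control, 156 to 417 for IL-4d2 against control and 110 to 446 between the forms, cathepsins from 6 to 8, 0 to 3 and 0 to 4, and cathepsins by the F test from 6 to 7. Without a filter 244 probe sets and 1 cathepsin were called between the forms, and quantile normalization called 1 cathepsin with IL-4d2. Without a trend in eBayes, 195 probe sets were called with IL-4d2, and 165 with 0 cathepsins between the forms. Without control mouse 1 and IL-4 mouse 2 the probe sets called were 1068, 200 and 237, the cathepsins 5 for IL-4 against control and 1 between the forms, and 4 by the F test; fewer arrays enter that fit.

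Same-numbered mice did not deviate together (correlations from −0.07 to 0.12, 2 of 9 pairs over 0.1). With mouse number as a replicate block, 4 cathepsins were called with IL-4d2 (Ctsc, Ctsh, Ctss and Ctsz) and 5 between the forms (Ctsc and Ctsd beside Ctsb, Ctsk and Ctss). The share of all probe sets called with this block is not given here. Whether the gain was particular to the cathepsins was not tested.

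Scaling to hybridisation controls (18 probe sets) called 7451 probe sets for IL-4 against control (295 higher, 7156 lower) with 1 cathepsin, 1 cathepsin with IL-4d2, 11163 probe sets between the forms (89 higher, 11074 lower) and 3 cathepsins by the F test. Scaling to poly-A controls (24 probe sets) called 18123 for IL-4 against control (152 higher, 17971 lower) with 2 cathepsins (1 higher, 1 lower), 519 with IL-4d2 with 3 (all higher), and 22503 between the forms (33 higher, 22470 lower) with 8 (all lower). Sign changes with hybridisation controls for IL-4 against control were Ctsa −0.11, Ctse −0.076, Ctsl −0.41 and Cstb −0.029, for IL-4d2 Ctsl 0.043, and between the forms Ctsa −0.25, Ctsb −0.039, Ctse −0.34, Ctsh −0.46, Ctsl −0.45, Ctsz −0.12 and Lgmn −0.083. With poly-A controls they were, for IL-4 against control, Ctsa −0.46, Ctsb −0.11, Ctse −0.40, Ctsh −0.23, Ctsl −0.76, Cstb −0.38, Glb1 −0.22, Lgmn −0.19 and Serpinb6b −0.13, for IL-4d2 Ctsl 0.23, and between the forms Ctsa −0.78, Ctsb −0.58, Ctsc −0.51, Ctsd −0.50, Ctse −0.84, Ctsh −1.0016, Ctsl −0.99, Ctss −0.044, Ctsz −0.66, Lgmn −0.62 and Psap −0.11. The median of all probe sets moved between the forms by −0.52 and −1.04. The mean over a gene's probe sets turned Ctsa with IL-4d2 to −0.074. With 1 array left out, some signs turned: Ctsk with IL-4d2 ranged from −0.51 to 0.043, Ctsl from −0.078 to 0.136 with IL-4, from −0.11 to 0.047 with IL-4d2 and from −0.030 to 0.184 between the forms, and Ctsh between the forms from −0.012 to 0.178. Without control mouse 1 and IL-4 mouse 2, Ctsl was −0.084 with IL-4, and Ctsh −0.006 and Ctsl −0.030 between the forms. The cause of these changes was not tested. Signal over background limits Ctse, and the dim probe sets of Ctsa and Ctsb.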
